A study of Mus musculus with 6 samples.

Results

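Expression of 9 Hedgehog pathway genes (Gli1, Gli2, Gli3, Ptch1, Smo, Sufu, Hhip, Gas1 and Boc) was read from RNAseq counts of cells sorted as neural crest cells (NCCs). The genes were taken by symbol, through the Ensembl identifiers of GENCODE M21, and account for 9 of the 46983 genes in the count table. All 9 passed the filter on low counts. GFP+ NCCs had been sorted from 3 control and 3 deficient embryos at E11.25, which matches the 3 libraries of each group. The 3 control libraries came from embryos with one floxed copy of each subunit gene (BAF155 flox/+, BAF170 flox/+), and the 3 deficient libraries from embryos with both copies floxed (BAF155 flox/flox, BAF170 flox/flox). Every embryo also carried Wnt1 Cre/+ and the Rosa26 mTmG/+ reporter. The controls have thus already lost 1 copy of each BAF subunit gene in the labelled cells. Wnt1-driven Cre is also active in the dorsal neural tube, so GFP does not mark NCCs alone. The comparison asks how loss of both core subunits of this chromatin remodeling complex bears on transcripts of the pathway.

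Hedgehog ligands are secreted proteins that bind the receptor Ptch1, with Gas1, Boc and Cdon as co-receptors. Ligand binding relieves the inhibition of Smo by Ptch1, and Smo then acts in the primary cilium to turn the Gli proteins from repressors into activators. Sufu holds Gli proteins inactive, Gli3 works largely as a repressor, Gli2 largely as an activator, and Gli1 is an activator that is itself a target of the pathway. Ptch1 and Hhip, a cell-surface protein that sequesters ligand, are also targets and damp the signal. In the head and pharyngeal arches, cranial NCCs receive Hedgehog ligand from neighbouring epithelia and need it to survive and to pattern the face.

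Counts on genes ranged from 8191219 to 11661941 in the control libraries and from 12633319 to 19808620 in the deficient ones, so every deficient library was deeper. Smarcc1, which encodes BAF155, was called lower (log2 fold change −0.71 ± 0.16, SE; edgeR's quasi-likelihood test, Benjamini-Hochberg adjusted p = 0.0676), while Smarcc2, which encodes BAF170, had a log2 fold change of −0.11 ± 0.058 (SE) and was not called. The call of Smarcc1 ended without control replicate 1 (edgeR adjusted p = 0.223), control replicate 2 (log2 fold change −0.53), deficient replicate 2 (adjusted p = 0.136) or deficient replicate 3 (adjusted p = 0.225), and with correction for exon length (log2 fold change −0.55). Counts per gene do not resolve the floxed exons. The markers of the labelled cell type were present but low, and their sum lay far below that of macrophage markers in every library. The 16 mesenchymal crest markers summed to between 77.0 and 129.5 CPM (counts scaled to a common library total) in the controls and between 35.9 and 60.7 CPM in the deficient libraries. The 12 macrophage markers, all of them tested and none at 0, summed to between 12027 and 13948 CPM in the controls and between 14075 and 15360 CPM in the deficient libraries. All 55 embryonic markers (mesenchymal, sensory, autonomic, glial and neural tube) summed to 321 ± 99.2 CPM (SD, n = 3) and 167 ± 37.5 CPM (SD, n = 3), and the groups did not overlap in either sum (exact permutation test, two-sided, p = 0.1, the smallest that 3 against 3 libraries allow).

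Among the 9 genes, the largest differences were those of Gli3 and Gas1, and Gas1 alone was called lower. Calls required an adjusted p no higher than 0.1, an absolute log2 fold change from 0.58 upward and an average of 2 CPM or more. Errors of fold changes are standard errors (SE), and adjusted p-values are Benjamini-Hochberg values of edgeR's quasi-likelihood test where no other tool is named. Over the 13961 genes tested, 4.88% were called lower and 0.0573% higher, against 1 and 0 of the 9. By the adjusted p alone the shares were 7.75% and 4.18%, again against 1 and 0 of the 9. Every one of the 9 had a lower mean in the deficient libraries, as did 52.3% of all tested genes. Their median log2 fold change was −0.38 and that of all tested genes −0.02. In Gas1 and Gli3 each deficient library lay below each control library, which held for 16.4% of all tested genes. In a bulk library, fewer cells that express a gene and less RNA of that gene per cell cannot be told apart, and the part of the marker sums above in these differences was not tested.

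**Figure D1:**
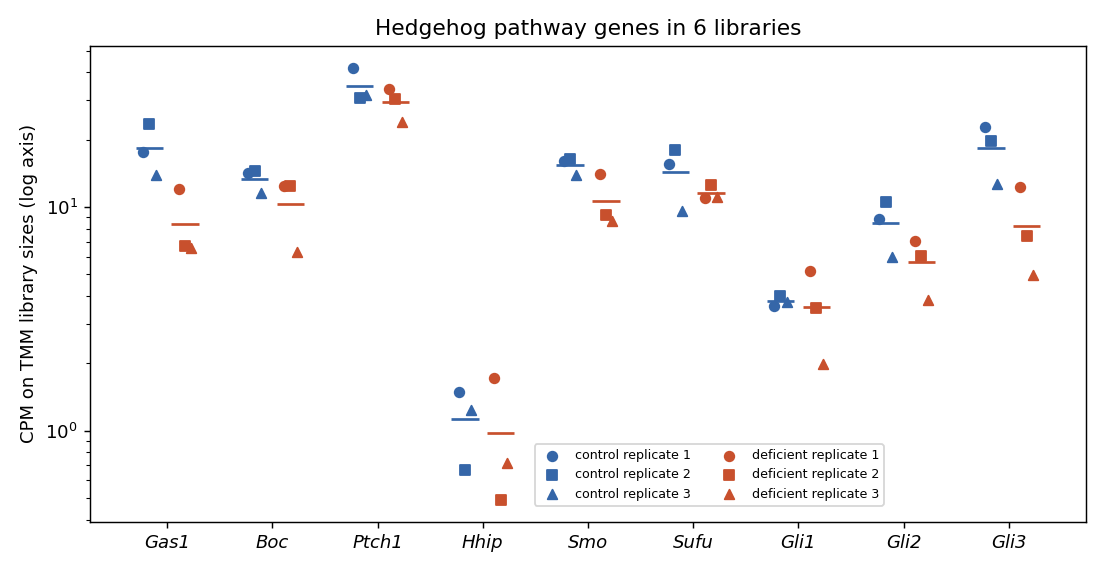
Level of each of the 9 genes in the 6 libraries, as CPM on TMM-normalized library sizes (y axis, log scale), by gene (x axis). Symbols are libraries, blue for control and orange for deficient, and bars are group means; Gas1 and Gli3 are the only genes with no overlap between groups, and deficient replicate 3 is the lowest deficient library for 7 of the 9 genes.

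Gas1, a cell-surface protein anchored to the membrane by a lipid, lies on chromosome 13 of GRCm38 (60174405 to 60177365, minus strand, ENSMUSG00000052957.7). It measured 17.6, 23.5 and 13.9 CPM in the control replicates (1, 2 and 3) against 11.98, 6.72 and 6.55 CPM in the deficient replicates (1, 2 and 3), the order kept for all genes. All deficient values were under the lowest control value, though deficient replicate 1 came within 2 CPM of control replicate 3. The log2 fold change was −1.13 ± 0.29 (SE, edgeR adjusted p = 0.0826). Leaving out one of 4 libraries ended the call, with edgeR adjusted p-values of 0.244 and 0.234 when control replicate 1 or 2 was dropped and of 0.174 and 0.272 when deficient replicate 2 or 3 was. Over all 6 such fits the log2 fold change of Gas1 ran from −1.46 to −0.91. Over 14 alternatives in all, the adjusted p of Gas1 lay between 3.84e-09 and 0.765. The non-coding gene Gm48488, not analysed here, shares 589 of the 2961 exon bases of Gas1 on the opposite strand. The 250 bases upstream of the RefSeq start of Gas1 are shown because it is the gene called among the 9. They lie at chr13:60177536-60177785 of GRCm38.p6 and are written on the minus strand, 5′ to 3′, with capitals for CpG dinucleotides.
Gas1: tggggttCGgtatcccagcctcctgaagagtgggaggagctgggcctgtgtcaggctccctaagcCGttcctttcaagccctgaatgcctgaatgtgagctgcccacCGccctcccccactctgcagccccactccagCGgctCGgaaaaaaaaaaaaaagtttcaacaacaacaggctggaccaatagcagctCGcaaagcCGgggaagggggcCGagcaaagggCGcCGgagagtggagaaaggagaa
This stretch holds 10 CpG dinucleotides, against a median of 6 over 32851 RefSeq promoter windows of the same length. Among the windows of the 9 genes the number ran from 8 for Sufu to 41 for Ptch1, and only Sufu had fewer than Gas1. The Gli binding site TGGGTGGTC, searched on both strands without mismatch, was in 0 of the 7 windows found for the 9 genes and in 0.225% of all windows. For so rare a site, 0 of 7 would be usual for any genes, so the search says nothing about Gli binding here.

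Boc, a co-receptor of the immunoglobulin superfamily (chromosome 16, 44485049 to 44558897, minus strand), measured 14.2, 14.5 and 11.5 CPM in controls and, after deletion, 12.4, 12.4 and 6.27 CPM. Only deficient replicate 3 lay under all controls. The log2 fold change of −0.38 ± 0.26 (SE) was not called, and it was −0.11 without deficient replicate 3. Boc and Gas1 act at the same step, so their ratio within a library was compared, a value that does not depend on how libraries are scaled. The log2 ratio of Boc to Gas1 counts was −0.30, −0.71 and −0.27 in the controls and 0.05, 0.88 and −0.06 in the deficient libraries. The ratio was higher in every deficient library, with a mean difference of 0.71 ± 0.33 (SE, exact permutation p = 0.1, adjusted p = 0.12 over 6 ratios). The direction of this difference follows from the fold changes of Boc and Gas1.

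Ptch1, the Hedgehog receptor (chromosome 13, 63508328 to 63573598, minus strand), was the most counted of the 9 genes, with 230 to 506 counts per library. It gave control values of 42.0, 30.8 and 31.7 CPM and deficient values of 33.8, 30.3 and 24.0 CPM. Deficient replicate 1 exceeded 2 of the 3 controls. The log2 fold change was −0.25 ± 0.16 (SE, edgeR adjusted p = 0.330), and after correction of each library for its trend with exon length it was 0.018. Hhip, the other target that limits the signal (chromosome 8, 79965851 to 80058006, minus strand), had 5 to 22 counts per library, or 1.49, 0.669 and 1.23 CPM in controls against 1.72, 0.489 and 0.712 CPM in deficient libraries. The highest and the lowest of these were both deficient libraries. Its log2 fold change was −0.29 ± 0.53 (SE), so that no difference in Hhip was detectable at this depth.

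Smo, the transmembrane protein that passes the signal on (chromosome 6, 29735503 to 29761365, plus strand), stood at 16.1, 16.5 and 13.9 CPM in controls against 14.1, 9.17 and 8.69 CPM in deficient libraries. Deficient replicates 2 and 3 were under all controls and replicate 1 was not. Its log2 fold change of −0.55 ± 0.19 (SE, edgeR adjusted p = 0.103) was just outside both the fold change and the adjusted p threshold. Smo was called lower by limma-voom, without control replicate 3 and without deficient replicate 1, with adjusted p-values of up to 0.348 in other alternatives. Sufu, the inhibitor that binds Gli proteins (chromosome 19, 46396896 to 46488804, plus strand), measured 15.5, 17.9 and 9.60 CPM in controls and, after deletion, 11.0, 12.5 and 11.1 CPM. All 3 deficient values lay between the lowest and the middle control value. The log2 fold change of Sufu was −0.30 ± 0.20 (SE, not called). It was −0.11 without control replicate 2, and −0.54 without control replicate 3 (edgeR adjusted p = 0.0294), which passed the adjusted p but not the fold change threshold.

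The 3 Gli genes encode zinc finger transcription factors that bind the same DNA site, and their values differed. Gli3 (chromosome 13, 15463235 to 15730026, plus strand) gave control values of 22.8, 19.7 and 12.7 CPM and deficient values of 12.3, 7.39 and 4.99 CPM. The groups did not overlap, but control replicate 3 and deficient replicate 1 were less than 1 CPM apart. The log2 fold change of −1.18 ± 0.37 (SE) was not called (edgeR adjusted p = 0.115). DESeq2 (adjusted p = 0.00315) and limma-voom (adjusted p = 0.0766) called Gli3 lower, as did the fit without a filter, the length correction and the fits without control replicate 3 or deficient replicate 1. Its adjusted p over 14 alternatives ran from 2.00e-05 to 0.611. The non-coding gene Gm6556 shares 188 of the 9589 exon bases of Gli3 on the opposite strand. Gm6556 had 11 counts in all controls and 5 in all deficient libraries. Gli2 (chromosome 1, 118834132 to 119053619, minus strand) stood at 8.83, 10.6 and 5.99 CPM in controls against 7.05, 6.05 and 3.85 CPM in deficient libraries, and control replicate 3 lay among the deficient values. Its log2 fold change was −0.58 ± 0.27 (SE, edgeR adjusted p = 0.192), and Gli2 was called lower without control replicate 3 (edgeR adjusted p = 0.0621, against up to 0.501 in other alternatives).

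Gli1 (chromosome 10, 127329882 to 127341974, minus strand) showed the smallest difference of the 9. It measured 3.62, 4.01 and 3.78 CPM in controls and, after deletion, 5.17, 3.54 and 1.99 CPM, which lay both above and below the controls. The log2 fold change of Gli1 was −0.12 ± 0.33 (SE, not called), and 0.18 without deficient replicate 3. These values rest on 30 to 66 counts per library. Gli1 shares 62 of its 4995 exon bases with Arhgap9 on the opposite strand, a gene at 30.4 to 32.2 CPM in the controls and 34.2 to 36.0 CPM in the deficient libraries. The antisense gene Gm47200, not analysed here, shares 265 exon bases of Gli1 on the opposite strand. The sources used here do not give the strand setting of the counting. The part of reads from Arhgap9 or Gm47200 in the counts of Gli1 was thus not tested.

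**Figure D2:**
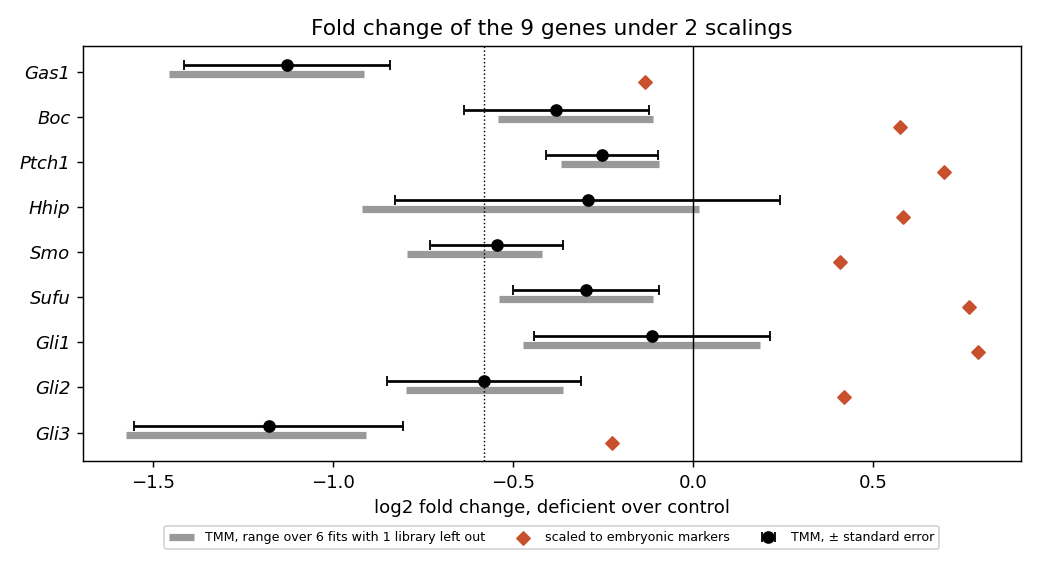
Log2 fold change of deficient over control libraries (x axis) for each of the 9 genes (y axis). Black points with bars are edgeR estimates ± standard error, grey bars the range over 6 fits with 1 library left out, orange diamonds the estimate with libraries scaled to embryonic markers, and the dotted line is at −0.58; Gas1 and Gli3 lie left of the other 7 genes under both scalings.

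Within a library, every Gli3 ratio examined was higher on average in the deficient libraries. Gli3 had the lowest log2 fold change of the genes in these ratios. Their direction thus follows from the fold changes above and is no separate result. The log2 ratio of Gli1 to Gli3 counts was −2.65, −2.29 and −1.75 in the controls and −1.25, −1.06 and −1.32 in the deficient libraries, a difference of 1.02 ± 0.27 (SE). The groups did not overlap. The log2 ratio of Ptch1 to Gli3 was 0.88, 0.65 and 1.32 in the controls and 1.46, 2.03 and 2.27 in the deficient libraries, a difference of 0.97 ± 0.31 (SE), again without overlap. Gli2 to Gli3 differed by 0.63 ± 0.21 (SE) and Smo to Gli3 by 0.65 ± 0.26 (SE), both without overlap. Sufu to Gli3 differed by 0.94 ± 0.41 (SE), and deficient replicate 1 lay within the controls. The exact permutation p was 0.1 for the 4 ratios without overlap, the smallest these groups allow, and 0.2 for Sufu to Gli3. Adjusted over the 6 ratios the values were 0.12 and 0.2, so none could pass 0.05. These 5 ratios share Gli3 and are not independent. When any one library was dropped, all of these differences stayed positive, with lowest values from 0.47 for Smo to 0.81 for Gli1.

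**Figure D3:**
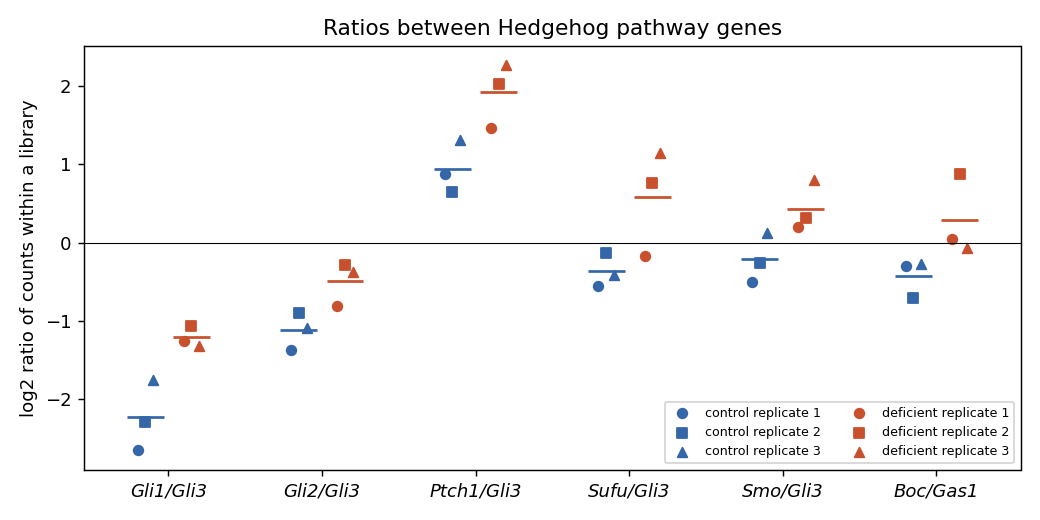
Log2 ratio of raw counts of 2 genes within each library (y axis) for the 6 ratios compared (x axis). Symbols are libraries, blue for control and orange for deficient, and bars are group means; the deficient libraries lie above the controls for every ratio but Sufu to Gli3, where 1 deficient library overlaps.

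Compared per kilobase of exon, the 9 genes spanned a wide range of levels in the controls. Gas1 was highest at 6.19 ± 1.65 CPM per kilobase (SD, n = 3), followed by Boc at 3.01 ± 0.372, Smo at 2.75 ± 0.248, Ptch1 at 2.46 ± 0.4402, Gli3 at 1.92 ± 0.536, Sufu at 1.87 ± 0.557, Gli2 at 1.23 ± 0.336, Gli1 at 0.761 ± 0.0400 and Hhip at 0.124 ± 0.0462, all in the same unit. Gas1 did not overlap Boc, Gli2 did not overlap Gli1, and Gli1 did not overlap Hhip. Each pair of neighbours from Boc down to Gli2 did overlap, so the order within such a pair is not resolved by these ranges. Genes farther apart could be told apart: the lowest control values of Boc (2.58) and Smo (2.47) lay above the highest of Gli3 (2.37). Levels of 2 genes were not compared within each library. In the deficient libraries Gas1 had 2.84 ± 1.04 CPM per kilobase (SD, n = 3) and overlapped Boc at 2.32 ± 0.794. Gli3, which in the controls overlapped Sufu, had 0.858 ± 0.388 CPM per kilobase and lay below Sufu at 1.498 ± 0.114 in every deficient library. It overlapped Gli2 at 0.822 ± 0.239 and Gli1 at 0.714 ± 0.318.

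The 9 genes did not follow one profile over the libraries. The likeness of 2 genes was taken as the root mean square difference of their log2 CPM over the 6 libraries, each centred on its own mean. Gli3 was nearest to Gas1 and Gas1 to Gli3 (0.253 on the log2 scale), while Gli3 was farthest from Sufu (0.618). Gli2 and Smo lay nearest to the mean profile of the 8 genes with at least 2 CPM, at 0.116 and 0.131, and Gli3 and Gas1 farthest, at 0.367 and 0.336. Hhip was left out for its low level. That mean profile was highest in control replicates 1 and 2 and lowest in deficient replicate 3, with control replicate 3 under deficient replicate 1. Among 9470 other genes with at least 5 CPM, the nearest to it were Arhgap5 (root mean square difference 0.0433), Ift80 (0.0489) and Akap11 (0.0699). None of these 3 was called, and their log2 fold changes were −0.59, −0.56 and −0.47.

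Scaling decided the sign of most of these differences. With the libraries scaled to the median of 32 embryonic markers, the median over all tested genes moved from −0.02 to 0.96 on the log2 scale and that of the 9 genes from −0.38 to 0.57. Gas1 was then at −0.14 and Gli3 at −0.23, neither called. The other 7 turned positive, from 0.41 for Smo to 0.79 for Gli1. Sufu (edgeR adjusted p = 0.0771) and Gli1 (adjusted p = 0.0787) were then called higher, or 2 of the 9 against 64.5% of all tested genes. None of the 9 was called lower, as were 0.265% of all tested genes. Over 14 alternatives their adjusted p-values ran up to 0.798 and 0.930, and neither was called in any other. All 9 lay below the median of all tested genes before the scaling and below the median of 0.96 after it. The scaling moves all genes by a similar amount, so their place after it is no separate result. The scaling sets the typical embryonic marker as equal between groups and removes any change these markers share.

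A list of 49 other genes of the pathway was examined for the same comparison, of which 37 passed the filter on low counts. Of these, 5 were called lower and none higher, or 13.5% against 4.88% of all tested genes, and the median log2 fold change was −0.34. The ligands themselves were barely read. Shh had 2 to 7 counts per library (15 in all controls and 20 in all deficient libraries), Dhh 0 to 6 and Ihh 0 to 5, and none of the 3 passed the filter. A count of 3 or fewer in a library is no more than the limit that a count of 0 allows, for counting error only.

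Of 5 genes of ligand release, 4 were tested and 2 were called lower, against 4.88% of all tested genes. A share of 4 genes is too coarse to describe the role. The 4 had a median of −1.04 on the log2 scale. Scube1 and Scube3 belong to a family of secreted glycoproteins that help free the lipid-modified ligand. Scube1 gave control values of 9.36, 14.9 and 5.58 CPM and deficient values of 3.21, 1.96 and 2.52 CPM. Its log2 fold change was −1.94 ± 0.35 (SE, edgeR adjusted p = 0.0483), and dropping control replicate 1 (edgeR adjusted p = 0.215) or deficient replicate 3 (0.175) ended its call. Scube3 stood at 12.98, 15.5 and 6.07 CPM in controls against 4.07, 3.60 and 2.61 CPM in deficient libraries, with a log2 fold change of −1.74 ± 0.34 (SE, edgeR adjusted p = 0.0559). Groups did not overlap in either gene. With scaling to embryonic markers Scube1 was at −0.85 and still called lower, the only one of the 49 that was, and Scube3 was at −0.68 and not called. Under that scaling 16 of the 37 tested genes of the list were called higher, against 64.5% of all tested genes, among them Mgrn1 (1.12), Prkar1a (1.09) and Ccnd1 (1.03). Disp1, which exports the ligand, had a log2 fold change of −0.34 ± 0.16 (SE) and was not called.

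None of 4 other receptors or surface partners was called, and their median log2 fold change was −0.37. Cdon, the co-receptor related to Boc, measured 31.8, 29.0 and 20.8 CPM in controls and, after deletion, 28.2, 23.6 and 10.8 CPM, with overlapping groups and a log2 fold change of −0.39 ± 0.41 (SE). Lrp2, an endocytic receptor, was at −0.05 and Gpc3, a cell-surface proteoglycan, at −0.43 on the log2 scale.

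Of 14 genes of the cilium and of Smo regulation, 1 was called lower (7.14%), near the 4.88% of all tested genes. The median over the 14 was −0.46 on the log2 scale. Kif7, a kinesin that organizes the tip of the cilium and acts on Gli proteins there, gave control values of 3.19, 4.42 and 2.63 CPM and deficient values of 1.41, 1.47 and 1.14 CPM. The groups were separate, and the log2 fold change was −1.33 ± 0.32 (SE, edgeR adjusted p = 0.0660) on 18 to 33 counts per library. Mgrn1, a ubiquitin ligase, was the most abundant of the 14, with a log2 fold change of 0.14 ± 0.057 (SE) and no call. None of the 11 genes of cytoplasmic Gli processing was called, and their log2 fold changes ran from −0.40 to 0.14 around a median of 0.03. The most abundant of them was Prkar1a, a regulatory subunit of the protein kinase that marks Gli proteins for processing, at 240.0 ± 16.1 CPM (SD, n = 3) in controls against 260.4 ± 4.02 CPM (SD, n = 3) after deletion.

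Of 12 genes described elsewhere as targets of Gli factors, 4 passed the filter and 2 were called lower, against 4.88% of all tested genes. The others of the 12 were too low to test, so the 4 do not stand for the targets as a set. The median of these 4 was −1.44 on the log2 scale. Foxd1, a forkhead factor of facial and kidney mesenchyme, stood at 5.11, 3.75 and 1.15 CPM in controls against 1.25, 1.04 and 0.570 CPM in deficient libraries, with a log2 fold change of −1.81 ± 0.54 (SE, edgeR adjusted p = 0.0901). It had 12 to 48 counts per library and averaged 2.14 CPM, close to the level for a call. Mycn, a growth-promoting factor, measured 6.81, 9.23 and 3.86 CPM in controls and, after deletion, 4.39, 2.57 and 2.47 CPM, with a log2 fold change of −1.07 ± 0.34 (SE, edgeR adjusted p = 0.0965). In both genes control replicate 3 lay below deficient replicate 1, so the groups overlapped. Foxc2 passed the adjusted p (edgeR, Benjamini-Hochberg, 0.0830) but averaged 0.837 CPM, under the level for a call. Ccnd1, the cyclin of the G1 phase and the most abundant of this group, had 82.9 ± 1.89 CPM (SD, n = 3) in controls against 86.0 ± 2.99 CPM (SD, n = 3) after deletion, with a log2 fold change of 0.05 ± 0.060 (SE). The calls of Kif7, Foxd1, Mycn and Scube3 each ended when any one of control replicates 1 and 2 and deficient replicates 2 and 3 was dropped, and those of Foxd1 and Mycn also by limma-voom.

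**Figure D4:**
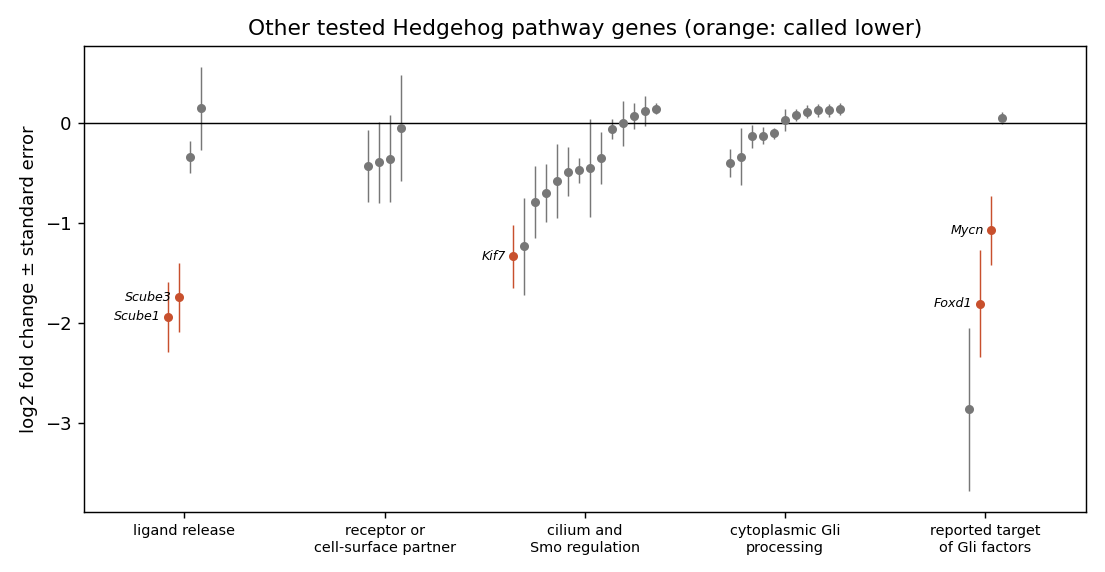
Log2 fold change of deficient over control libraries (y axis) of the 37 tested genes of the wider list, in 5 groups by role (x axis). Points are edgeR estimates and bars their standard errors, with the 5 called genes in orange; Scube1, Scube3, Kif7, Foxd1 and Mycn were called lower, and the 11 genes of cytoplasmic Gli processing lie between −0.40 and 0.14.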

How the data were processed

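Processed counts of 6 libraries were analysed (3 control, 3 deficient in BAF155 and BAF170). By the study's methods and the processing notes, the authors trimmed adapters (cutadapt 1.18), mapped paired-end reads from strand-specific poly(A) RNA with STAR (GRCm38) and counted them per gene with featureCounts. The deposited values are whole-number counts per gene without normalization. The annotation release, strand setting and handling of multi-mapped reads are not given in the sources used here. Identifiers were matched to GENCODE M21 without their version (46488 of 46983). Nothing in the sources marks a batch.

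Low genes were removed with filterByExpr (10 counts, 15 in total), and the rest normalized by TMM and tested with edgeR 4.0.16 in R 4.3.3 (robust quasi-likelihood test, condition as the only term, Benjamini-Hochberg adjustment over 13961 genes). Standard errors come from the F statistic. CPM used TMM library sizes, without a prior count, and exon lengths were unions over transcripts. Ratios of raw counts were compared with exact two-sided permutation tests, with 0.5 added to each count as an alternative. The genes named are the 9 members, the ligands, Smarcc1 and Smarcc2, and the 3 genes of nearest profile. From the wider list they are every called gene and the most abundant gene of each role. Foxc2, Lrp2, Gpc3, Arhgap9, Gm48488, Gm47200 and Gm6556 were added after their values were seen. The members, lists and tests were chosen with earlier results of these data known. Alternatives were DESeq2 1.42.0, voom of limma 3.58.1, library totals, 2 other filters, other thresholds, a replicate block, scaling to embryonic markers, a length correction (lowess span 0.3) and each library left out. Tested on simulated data, the control against deficient fit recovered 94.5% of 200 genes altered by 2 on the log2 scale, among 13961, with 9 false calls. This change is larger than that of any of the 9 members, and variation shared between genes was not simulated. The recovery therefore does not apply to the members. Promoter windows are RefSeq's on GRCm38.p6. By the study's methods, cells came from 3 embryos of each genotype. The labels do not tie a library to an embryo, and p-values measure only the spread between these libraries.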

Additional observations from a re-analysis of the deposited data

How the results depend on the processing

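Of the 9 genes, 1 was called lower in the reported fit, 2 by DESeq2, 3 by limma-voom, 2 without a filter on low counts, 2 with the length correction, 0 with scaling to embryonic markers and 0 at an adjusted p of 0.05. By the adjusted p alone 1 passed, against 3 by DESeq2, 3 by limma-voom, 3 without a filter, 2 with the length correction and 2, both higher, with the scaling. Of the other pathway genes, 5 were called lower, against 8 without a filter, 1 with the scaling (where 16 were called higher) and 1 at an adjusted p of 0.05. Over all genes 689 were called, against 889 by DESeq2, 836 by limma-voom, 1015 without a filter and 639 with the length correction. With the scaling 9048 were called, at an adjusted p of 0.05 94, and by the adjusted p alone 1665. With each library left out, the calls numbered 0 to 1244 over all genes, 0 to 4 of the 9 genes, 0 to 5 by the adjusted p alone and 0 to 10 of the other pathway genes. Over all genes, dropping deficient replicate 3 left 8 calls, control replicate 2 left 61, deficient replicate 2 left 221 and control replicate 3 gave 1244. With 0 calls, without control replicate 1, 2479 genes had an unadjusted p under 0.05 by edgeR.

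Deviations of same-numbered libraries from their group means correlated at 0.03, −0.03 and 0.29, above 0.1 for 1 pair of 3, so the numbers were not taken as pairs. A replicate block gave 1164 calls over all genes, 3 of the 9 genes (Gas1, Gli2 with an edgeR adjusted p of 0.0485 and Gli3 with 0.000553), 6 by the adjusted p alone and 8 of the other pathway genes.

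Signs turned with scaling to embryonic markers for Gli1 (0.79), Gli2 (0.42), Ptch1 (0.69), Boc (0.57), Smo (0.41), Sufu (0.76), Hhip (0.58), Disp1 (0.63), Cdon (0.55), Smarcc1 (0.31) and Smarcc2 (0.87). They also turned for Ptch1 with the length correction (0.018). With single libraries left out, Gli1 ran from −0.47 to 0.18 (positive without deficient replicate 3) and Hhip from −0.92 to 0.016 (positive without deficient replicate 2). The cause was not tested. The differences in the 6 ratios kept their direction with each library left out. Among the genes named, depth limits Hhip, Gli1, Kif7, Foxd1, Foxc2 and the ligands most.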

Other observations

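The summed level of the 9 genes came to 142, 138 and 104 CPM in the control replicates (1, 2 and 3) against 110, 88.6 and 68.1 CPM in the deficient replicates (1, 2 and 3). Divided by the summed level of the 55 embryonic markers in the same library, it was 0.453, 0.326 and 0.462 in the controls and 0.524, 0.569 and 0.499 in the deficient libraries. Control replicate 2 had the lowest of these ratios and the highest embryonic marker sum, 423 CPM. The embryonic marker sum averaged 321 CPM in the controls and 167 CPM in the deficient libraries, a proportionally larger fall than that of the 9 genes. The higher ratios in the deficient libraries follow from these sums and are no separate result.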
